A study of Mus musculus with 6 samples.

Results

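The genes described here control the release and uptake of calcium by the endoplasmic reticulum (ER). They are 10 genes chosen by symbol: the IP3 receptors Itpr1, Itpr2 and Itpr3, the ryanodine receptors Ryr1, Ryr2 and Ryr3, the SERCA pumps Atp2a2 and Atp2a3, the store sensor Stim1 and the plasma membrane channel Orai2. All 10 were found among the 48709 genes of the count table, and all 10 passed the filter on low counts that left 16699 genes for testing. The samples were whole cerebella of C57BL/6J mice at 40 weeks of age. In 3 of them the genotype was wildtype, and the other 3 came from heterozygous knock-in (Kihet) mice of the SCA7 140Q/5Q line, a model of spinocerebellar ataxia type 7 whose Atxn7 alleles carry 140 and 5 glutamine codons. No treatment is given. The labels do not say that the samples came from separate animals, so p-values here reflect only how much these samples varied, and that variation could be technical.

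The ER is the main calcium store of a neuron. SERCA pumps fill it, using ATP to move calcium from the cytosol into the lumen, and IP3 receptors and ryanodine receptors let calcium out again, the former when IP3 is made downstream of receptors such as mGluR1, the latter when cytosolic calcium rises. Stim proteins sense an emptied store and open Orai channels in the plasma membrane. Cerebellar Purkinje cells are known for a very high content of the type 1 IP3 receptor, which serves calcium release in their dendrites and synaptic plasticity at parallel fibre synapses, and loss or mutation of Itpr1 causes ataxia in mice and humans.

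In knock-in cerebellum the dominant release channel and the dominant pump were both lower. Itpr1 was 35.7% lower and Atp2a2 37.7% lower than in wild type by the fitted fold change. In whole tissue, fewer cells of a type and less RNA per cell cannot be told apart. The second pump, Atp2a3, lay below every wild-type sample in each knock-in sample but did not pass the test. The other IP3 receptors, the ryanodine receptors, Stim1 and Orai2 did not pass it either, and their groups overlapped. Of the 10 genes, 2 were called lower and 0 higher by edgeR's quasi-likelihood test with Benjamini-Hochberg adjustment (threshold 0.05), where 1.28% of all tested genes were called lower, 0.629% higher and 1.9% in either direction. The split of calls over all genes was 213 lower and 105 higher, and 190 lower and 323 higher with scaling by library size alone, which moved the median of all genes from 0.01 to 0.08 and kept both calls of the 10. At an unadjusted p under 0.05 there were 3 of 10, the third being Atp2a3, against 3017 of all 16699 tested genes. In 3 of the 10 all knock-in values lay below all wild-type values, against 11.5% of all tested genes. The median log2 fold change was -0.12 over the 10 genes and 0.01 over all tested genes.

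Libraries held 34630391 to 49127673 counts, and the 10 genes had between 260 and 264279 counts in a library. CPM is the count scaled per 1e6 of the TMM-adjusted library size. Cerebellar markers were present: none of 28 Purkinje cell and 17 granule neuron markers was at 0, and all were tested. Knock-in replicates 1 and 3 stood apart in brainstem markers, of which 8 of 18 had enough counts to be tested and 1, Slc18a2 (named after its values were seen), was called higher. The mean log2 CPM of these markers was -1.03, 0.15 and -1.38 in wild type, against 2.69, -0.03 and 1.73 in knock-in, and their summed level was 16.9 to 23.7 CPM and 16.9 to 93.1 CPM. Not every marker was higher. Log2 fold changes of the 8 tested ran from -0.19 (Th) to 3.74 (Slc18a2), with a median of 3.13. A mean under 1 CPM was found for 12 of the 18. Among these, Hoxa2 had means of 0.12 and 0.12 CPM and Hoxb2 of 0.102 and 0.101 CPM in wild type and knock-in. Th, Hoxa2 and Hoxb2 were named after their values were seen. The part of the brainstem marker difference in the results below was not tested beyond the values given with each.

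**Figure D1:**
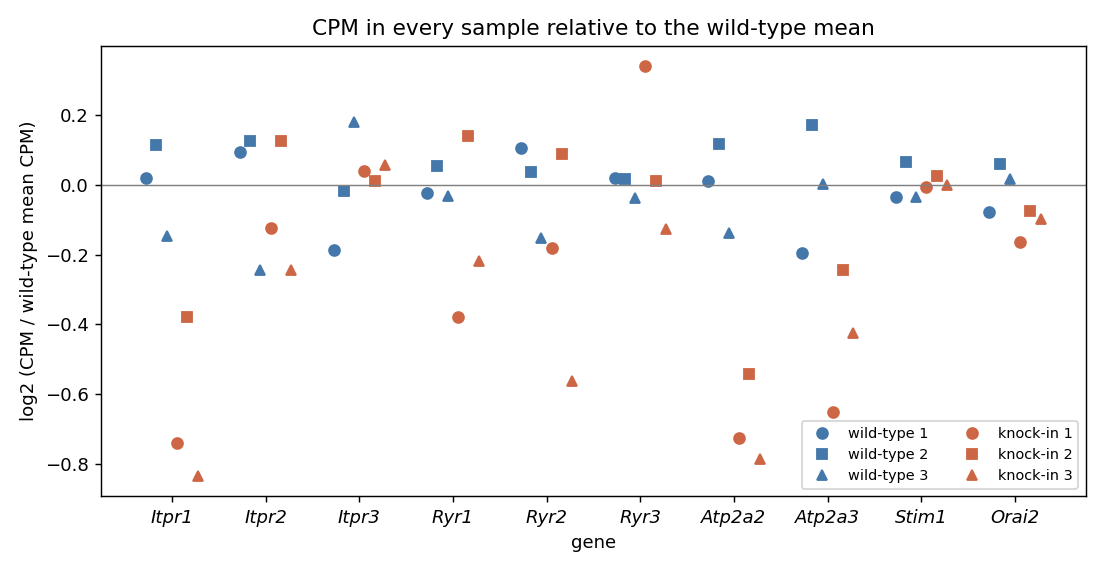
Each point is the CPM of a gene in a sample as log2 of its ratio to the wild-type mean of that gene (blue, 3 wild-type samples; orange, 3 knock-in samples; symbols give the replicate number). The orange points of Itpr1, Atp2a2 and Atp2a3 all lie below the blue ones, and those of Stim1 lie among them.

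Itpr1 (ENSMUSG00000030102, chromosome 6, 108213096 to 108551109, plus strand, mm10) encodes the type 1 IP3 receptor. Wild-type samples 1 to 3 gave 5414.3, 5783.2 and 4829.8 CPM, against 3195.4, 4110.4 and 2994.9 CPM in knock-in samples 1 to 3, the order in which sample values are given throughout. The groups did not overlap, and knock-in replicate 2 was the nearest to wild type. Means were 5342.4 ± 481 and 3433.6 ± 595 CPM (SD, n = 3 each). This gave a log2 fold change of -0.64 ± 0.11 (SE) and an edgeR adjusted p of 0.0239. By counts Itpr1 ranked second of the 16699 tested genes in all 3 wild-type samples, and 5, 2 and 4 in the knock-in samples, which reflects in part its long transcript. It took up 0.538%, 0.55% and 0.473% of all counts in wild type, against 0.332%, 0.411% and 0.311% in knock-in.

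The call of Itpr1 was lost without any of the wild-type replicates 1, 2 and 3 (edgeR adjusted p 0.11, 0.0836 and 0.051) and without knock-in replicate 1 or 3 (0.124 and 0.0935), and was kept without knock-in replicate 2 (0.00143). Without both knock-in samples high in brainstem markers, which leaves a lone knock-in sample, the log2 fold change was -0.36. With a covariate for brainstem markers it was -0.48 (edgeR adjusted p 0.829), in a fit that called 3 of all 16699 tested genes.

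Itpr2 (ENSMUSG00000030287, chromosome 6, 146108299 to 146502223, minus strand) encodes the type 2 receptor, which is prominent in astrocytes. It had 22, 22.5 and 17.4 CPM in wild type, against 18.9, 22.5 and 17.4 CPM in knock-in, so both groups covered nearly the same range. The log2 fold change was -0.07 ± 0.13 (edgeR adjusted p 0.811), and its sign changed under 5 other settings. Itpr3 (ENSMUSG00000042644, chromosome 17, 27057304 to 27122223, plus strand), the type 3 receptor, best known from secretory and taste cells, had 21.7, 24.4 and 28 CPM in wild type, against 25.4, 24.9 and 25.7 CPM in knock-in. All knock-in values lay inside the wild-type range (0.04 ± 0.10, edgeR adjusted p 0.877).

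Members of a family share sequence, which could move reads between them. No word of 50 bases was shared between the coding transcripts of any pair of IP3 receptors, ryanodine receptors or SERCA pumps in GENCODE M21. Only exact matches were counted, so reads aligned with mismatches are not covered. Whether reads moved between members was not tested. The sequences shown, for 3 of the pairs, are the longest exact runs shared by the transcripts with the longest coding sequence of a pair, and all lie in coding exons. The run of Itpr1 and Itpr2 has 28 bases and lies in exon 61 of Itpr1 (chr6:108541985-108542012) and exon 56 of Itpr2 (chr6:146112429-146112456). The run of Ryr1 and Ryr2 has 35 bases across an exon junction that begins in exon 106 of Ryr1 and exon 102 of Ryr2. That of Atp2a2 and Atp2a3, the longest shown, has 44 bases and lies in exon 15 of both (chr5:122460000-122460043, minus strand, and chr11:72981881-72981924, plus strand).
Itpr1 and Itpr2: ggaacctgcaggagaagctggagtctac
Ryr1 and Ryr2: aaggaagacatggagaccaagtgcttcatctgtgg
Atp2a2 and Atp2a3: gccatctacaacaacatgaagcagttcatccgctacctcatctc

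Levels of different genes were compared as CPM per kilobase of exon. On that scale Itpr1 made up nearly all of the IP3 receptor level: 98.7%, 98.7% and 98.4% in the wild-type samples and 97.7%, 98.1% and 97.6% in the knock-in samples. The share was 0.79 percentage points lower in knock-in with no overlap (two-sided exact permutation p 0.1, the smallest that 3 against 3 samples can give). Itpr3 held 0.936% ± 0.2 in wild type and 1.5% ± 0.26 in knock-in, and Itpr2 0.47% ± 0.028 and 0.694% ± 0.025 (SD, n = 3 each). Both shares were higher in every knock-in sample, with the same exact p of 0.1. Shares within a family add up to the whole, so together these rises restate the lower Itpr1 share. The CPM values of Itpr2 and Itpr3 themselves overlapped between the groups. All 3 shares are ratios within a library and do not depend on the scaling between libraries.

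Among the ryanodine receptors, which amplify calcium signals by calcium-induced release, Ryr2 had the highest level. Ryr2 (ENSMUSG00000021313, chromosome 13, 11553102 to 12106945, minus strand), the main form in heart and widespread in brain, had 127.4, 121.4 and 106.5 CPM in wild type, against 104.4, 125.8 and 80.2 CPM in knock-in. Knock-in replicate 2 lay at the upper end of the wild-type range and replicate 3 well below it (log2 fold change -0.19 ± 0.14, edgeR adjusted p 0.513). Without both knock-in samples high in brainstem markers the estimate was 0.10.

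Ryr1 (ENSMUSG00000030592, chromosome 7, 29003344 to 29125179, minus strand) is the skeletal muscle form and is also made by Purkinje cells. It had 18.3, 19.3 and 18.2 CPM in wild type, against 14.3, 20.5 and 16 CPM in knock-in, a wider spread than in wild type (-0.14 ± 0.13, edgeR adjusted p 0.617). Muscle transcripts were scarce: 12 of 16 muscle markers had a mean under 1 CPM, and the SERCA gene of fast muscle, Atp2a1, chosen after its values were seen, had 0.656, 1.03 and 0.801 CPM in wild type, against 0.217, 0.678 and 0.529 CPM in knock-in (edgeR adjusted p 0.315). Ryr3 (ENSMUSG00000057378, chromosome 2, 112631355 to 113217096, minus strand), a brain form at low level, had 8.01, 7.99 and 7.7 CPM in wild type, against 10, 7.96 and 7.24 CPM in knock-in. Knock-in replicate 1, the sample highest in brainstem markers, lay above the rest and replicate 3 below (0.09 ± 0.14, edgeR adjusted p 0.777), and without replicate 1 the estimate was -0.05.

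Of the Ryr3 exon bases, 4.83% lie opposite exons of Aven, a cell death inhibitor gene named for this overlap and not by the rule for named genes, with a mean of 14.2 CPM in wild type and 13 CPM in knock-in. Without a stated strand setting of the counting, reads from that stretch cannot be told apart. By length, Ryr2 held 76.3% ± 1.5 of the ryanodine receptor level in wild type and 74.4% ± 2.6 in knock-in (two-sided exact permutation p 0.4), Ryr1 15.9% ± 1.1 and 16.3% ± 2.6, and Ryr3 7.75% ± 0.41 and 9.37% ± 1.9 (SD, n = 3 each). The groups overlapped for all 3 shares.

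Atp2a2 (ENSMUSG00000029467, chromosome 5, 122453513 to 122502225, minus strand) encodes SERCA2, whose 2b splice form fills the ER of most cell types. It had 2032.5, 2187.5 and 1834.6 CPM in wild type, against 1220.7, 1384.1 and 1169.4 CPM in knock-in. The lowest wild-type sample stood well above the highest knock-in sample. Means were 2018.2 ± 177 and 1258.1 ± 112 CPM (SD, n = 3 each), with a log2 fold change of -0.68 ± 0.09 and an edgeR adjusted p of 0.00656. The call was lost without wild-type replicate 1 (adjusted p 0.0509) and without knock-in replicate 1 (0.0569), both close to the threshold, and was kept without each other sample. Without both knock-in samples high in brainstem markers the log2 fold change was -0.53. With that marker level as a covariate it was -0.64 (edgeR adjusted p 0.525), in the fit that called 3 of all 16699 tested genes.

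Atp2a3 (ENSMUSG00000020788, chromosome 11, 72961169 to 72993044, plus strand) encodes SERCA3, which in the cerebellum is known from Purkinje cells. It had 364.2, 470.0 and 417.8 CPM in wild type, against 265.8, 352.2 and 310.8 CPM in knock-in. The groups were close to each other, with wild-type replicate 1 only slightly above knock-in replicate 2. The log2 fold change was -0.43 ± 0.12 with an edgeR adjusted p of 0.101. DESeq2 called it (-0.44, adjusted p 0.0153), as did edgeR with offsets for GC content and length (-0.56, adjusted p 0.00779). Without both knock-in samples high in brainstem markers the log2 fold change was -0.23, and with the covariate it was -0.30 (edgeR adjusted p 0.93). The DESeq2 fit made 936 calls among all genes and the offset fit 633, against 318 in the edgeR fit. Atp2a2 held 80.8% ± 1.9 of the SERCA level by length in wild type and 78% ± 1.8 in knock-in, and the shares overlapped (two-sided exact permutation p 0.2).

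Stim1 (ENSMUSG00000030987, chromosome 7, 102267806 to 102437319, plus strand), the calcium sensor of the ER membrane, was the steadiest of the 10. It had 129.9, 139.5 and 130.1 CPM in wild type, against 132.7, 135.7 and 133.2 CPM in knock-in (0.01 ± 0.07, edgeR adjusted p 0.968). Orai2 (ENSMUSG00000039747, chromosome 5, 136147459 to 136170713, minus strand), a pore subunit of store-operated channels, had 87.6, 96.3 and 93.4 CPM in wild type, against 82.5, 87.7 and 86.3 CPM in knock-in. Its groups met at their edges (-0.11 ± 0.08, edgeR adjusted p 0.471). Counts of Itpr1 per count of Stim1 were 41.7, 41.5 and 37.1 in wild type, against 24.1, 30.3 and 22.5 in knock-in, and counts of Atp2a2 per count of Stim1 were 15.6, 15.7 and 14.1 against 9.2, 10.2 and 8.78. Neither ratio overlapped between the groups (two-sided exact permutation p 0.1 each, the smallest possible). Itpr1 and Atp2a2 were already separated in CPM and Stim1 was steady, so these ratios restate that separation without scaling between libraries.

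RefSeq promoter windows (GRCm38.p6, 250 bases before to 50 after the start) were held for 7 of the 10 genes, with no entry for Itpr1, Ryr3 and Atp2a2. The 2 windows shown belong to the lower but uncalled pump gene Atp2a3 (chr11:72960919-72961218, plus strand) and to the steady gene Stim1 (chr7:102267569-102267868, plus strand). Capitals mark the GC box GGGCGG on either strand, which occurred in 35.7% of all 32851 windows and in all 7 held here. Matches may overlap. Atp2a3 had 5 matches and Stim1 8, with a GC content of 68.3% and 78.7% against a median of 52.7% over all windows.
Atp2a3: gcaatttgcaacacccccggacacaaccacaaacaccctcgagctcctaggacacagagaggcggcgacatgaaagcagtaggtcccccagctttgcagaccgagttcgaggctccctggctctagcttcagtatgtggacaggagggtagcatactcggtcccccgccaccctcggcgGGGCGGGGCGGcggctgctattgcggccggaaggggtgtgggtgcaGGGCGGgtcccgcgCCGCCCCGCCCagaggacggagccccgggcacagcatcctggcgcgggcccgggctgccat
Stim1: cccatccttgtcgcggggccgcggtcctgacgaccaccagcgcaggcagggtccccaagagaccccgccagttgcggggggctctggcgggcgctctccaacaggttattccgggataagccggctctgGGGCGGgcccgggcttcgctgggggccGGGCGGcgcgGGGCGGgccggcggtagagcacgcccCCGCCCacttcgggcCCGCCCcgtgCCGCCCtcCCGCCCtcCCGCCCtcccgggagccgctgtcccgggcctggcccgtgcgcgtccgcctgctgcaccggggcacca

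The nuclear receptor core site AGGTCA, held by 16.3% of all windows, was found on the plus strand of the Ryr2 and Orai2 windows, once in each, and in none of the other 5. The ER stress response element, CCAAT and CCACG with 9 bases between them on either strand, occurred in 0.119% of all windows and in none of the 7. A match describes letters only.

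Ordered by level per kilobase of exon in wild type, Atp2a2 came highest at 332 ± 29 and Itpr1 next at 292 ± 26 CPM per kilobase (SD, n = 3 each), and the samples of these neighbours overlapped. Atp2a3 followed at 79 ± 10, Orai2 at 15.2 ± 0.73, Stim1 at 12.8 ± 0.53 and Ryr2 at 4.11 ± 0.37 CPM per kilobase. At the low end were Itpr3 at 2.74 ± 0.35, Itpr2 at 1.39 ± 0.19, Ryr1 at 0.853 ± 0.028 and Ryr3 at 0.416 ± 0.0093 CPM per kilobase. All other neighbours in this order were separated in wild type. The order depends on the length used. Per kilobase of the longest transcript Itpr1, at 541 ± 49, stood above Atp2a2, at 356 ± 31, and Stim1, at 30.5 ± 1.3, above Orai2, at 23.2 ± 1.1. In knock-in the levels per kilobase of exon were 207 ± 18 for Atp2a2, 187 ± 32 for Itpr1 and 58.6 ± 8.2 for Atp2a3, so the same 3 genes stayed highest.

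**Figure D2:**
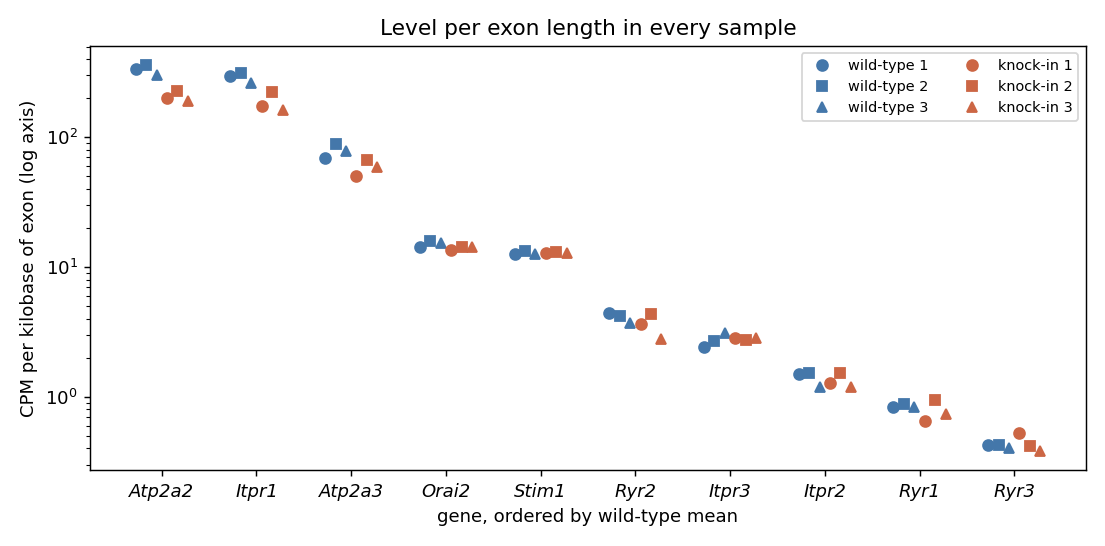
Each point is the level of a gene in a sample in CPM per kilobase of exon, on a log axis, with genes ordered by their wild-type mean (blue, wild type; orange, knock-in). Atp2a2 and Itpr1 lie between 264 and 360 in the wild-type samples, and every ryanodine receptor sample lies at 4.42 or less.

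The ratio of Itpr1 to Atp2a2 was nearly constant in wild type (SD 0.016) and varied more in knock-in (SD 0.22). Counts of Itpr1 per count of Atp2a2 were 2.66, 2.64 and 2.63 in the wild-type samples and 2.62, 2.97 and 2.56 in the knock-in samples, with overlap (two-sided exact permutation p 1). Likeness to every other gene was described by the root mean square difference of centred log2 CPM over the 6 samples, among 10277 other genes with a mean of at least 10 CPM. Atp2a2 ranked 8 in likeness to Itpr1, at 0.069, while Atp2a3 ranked 291 and Stim1 4695. The 5 genes most like Itpr1 were Ackr1, an atypical chemokine receptor, Cmya5, Arhgap26, Shisa6, an auxiliary subunit of AMPA receptors, and Slc1a2, the astrocyte glutamate transporter, at 0.036 to 0.061. Those most like Atp2a2 were Gpc6, a glypican, Npr1, a natriuretic peptide receptor, Doc2b, a calcium sensor of vesicle release, Ackr1 and Arhgap26, at 0.046 to 0.061. Since a shared genotype difference enters this measure, it is a description without a test.

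Markers of Purkinje cells were lower in part: of 28 listed and tested, 12 were called lower and 0 higher. Of all tested genes 1.28% were called lower and 0.629% higher. The median log2 fold change of the 28 was -0.36. Some were near 0, such as Pcp2 at -0.10 and Ebf1 at 0.00, chosen after their values were seen (edgeR adjusted p 0.73 and 0.995). The summed level of the 28 markers was 13389.7 to 14750.7 CPM in wild type and 9171.0 to 10542.3 CPM in knock-in. Itpr1 counts per summed marker count were 0.367, 0.399 and 0.361 in wild type, against 0.348, 0.39 and 0.293 in knock-in, with overlap (two-sided exact permutation p 0.4). For Atp2a2 the ratio was 0.138, 0.151 and 0.137 against 0.133, 0.131 and 0.114, without overlap (p 0.1 by the same exact test, the smallest possible). For Atp2a3 it was 0.0247, 0.0324 and 0.0312 against 0.029, 0.0334 and 0.0304, with overlap (exact p 0.7). Car8 alone made up 20% of the summed level and Rgs8, named after its values were seen, 13.9%, so the ratio rests on few genes.

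Some markers of other cells were called lower too, where 1.28% of all tested genes were called lower. Of 12 astrocyte markers 4 were called lower (median -0.31, summed level 3984.2 to 4172.4 CPM in wild type and 3098.6 to 3447.4 CPM in knock-in). Of 13 tested Bergmann glia markers 2 were called lower (median -0.30), of 17 granule neuron markers 3 (median -0.18), of 13 oligodendrocyte markers 3 (median -0.08) and of 14 interneuron markers 0 (median -0.21). Summed levels were also lower without overlap for Bergmann glia (4444.5 to 4648.8 CPM in wild type, 3579.1 to 4128.0 CPM in knock-in). The same held for granule neurons (7696.2 to 8540.8 and 6059.5 to 7355.1 CPM) and interneurons (2518.2 to 2672.9 and 2055.3 to 2291.4 CPM). Those of oligodendrocytes overlapped (7768.9 to 10085.6 and 7687.4 to 8051.9 CPM). No microglial, vascular, choroid plexus, muscle or blood marker was called. The summed level of choroid plexus markers varied widely, from 895.5 to 2774.0 CPM in wild type and from 232.2 to 1869.7 CPM in knock-in. The part of these cell types in the Itpr1 and Atp2a2 results was not tested.

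Other genes of the pathway were taken from 6 lists, chosen with earlier results of these data known. They held 136 genes besides the 10, of which 126 were tested. Of these, 4 were called lower (3.17%) and 0 higher, against 1.28% and 0.629% of all tested genes, and the median log2 fold change was -0.04. With the brainstem marker covariate none of the 4 was called (edgeR adjusted p 0.525 to 0.877), where 3 of all 16699 tested genes were called. Their log2 fold changes were then -0.66 to -0.32. Without both knock-in samples high in brainstem markers, which leaves a lone knock-in sample, they were -0.65 to -0.28. In 23.8% of the 126 all knock-in samples lay below all wild-type samples, against 11.5% of all tested genes. The Purkinje cell marker list shares 7 genes with the 6 lists, among them the called gene Car8.

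**Figure D3:**
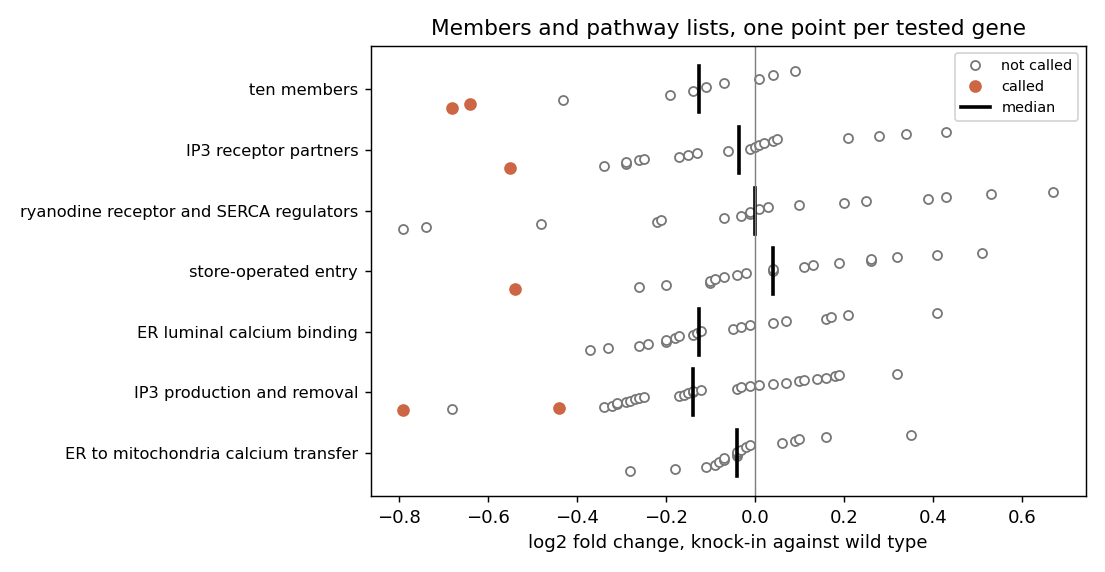
Each point is the log2 fold change of a tested gene, knock-in against wild type, for the 10 genes and the 6 pathway lists (filled, called by edgeR with an adjusted p up to 0.05; black bar, median). Filled points, among them Itpr1 and Atp2a2 in the top row and Car8, Plcb3 and Inpp5a below it, all lie left of 0.

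Of 20 tested partners and regulators of IP3 receptors, 1 was called lower and 0 higher (median -0.03). This was Car8, a carbonic anhydrase-related protein that binds Itpr1 and lowers its affinity for IP3. Car8 had 3161.9, 2808.6 and 2640.8 CPM in wild type, against 1806.0, 2033.3 and 2045.6 CPM in knock-in, without overlap (-0.55 ± 0.08, edgeR adjusted p 0.0144). Its call was lost without wild-type replicate 1 and without knock-in replicate 1 or 3 (adjusted p 0.065, 0.0924 and 0.0512).

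Of 31 tested genes of IP3 production and removal, 2 were called lower and 0 higher (median -0.14). Plcb3, a phospholipase C that makes IP3, had 76, 85.6 and 87.4 CPM in wild type, against 44.3, 52.4 and 47.6 CPM in knock-in, the largest decrease among called genes of the lists (-0.79 ± 0.09, edgeR adjusted p 0.0037). It stayed called without each sample in turn. Inpp5a, the phosphatase that removes IP3, had 647.6, 696.9 and 646.3 CPM in wild type, against 442.0, 539.0 and 490.1 CPM in knock-in (-0.44 ± 0.09, edgeR adjusted p 0.0353). The call of Inpp5a was lost without each sample other than knock-in replicate 2, with adjusted p from 0.0998 to 0.159.

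The median log2 fold change of 19 tested genes of store-operated entry and related channels was 0.04. The close relatives of Stim1 and Orai2, chosen here after their values were seen, were not called: Stim2 had a log2 fold change of 0.04 ± 0.07, Orai1 of 0.19 ± 0.17 and Orai3 of -0.26 ± 0.08 (edgeR adjusted p 0.818, 0.581 and 0.151).

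In the list of luminal calcium-binding proteins and chaperones, 0 of 20 tested genes were called by edgeR, with a median of -0.12. In 8 of the 20 all knock-in samples lay below all wild-type samples, against 11.5% of all tested genes. In 4 (Rcn3, Nucb1, Tmx1 and Nucb2, named after their values were seen) all knock-in samples lay above. Their log2 fold changes were 0.16 to 0.41 (edgeR adjusted p 0.238 to 0.515). The share of all tested genes lying above was not counted. Its most abundant gene, Hsp90b1, the chaperone GRP94, had 417.1, 438.3 and 390.5 CPM in wild type, against 314.9, 344.7 and 333.2 CPM in knock-in (-0.33 ± 0.08, edgeR adjusted p 0.0647). The calcium buffer Calr and the chaperone Hspa5, chosen after their values were seen, had log2 fold changes of -0.26 ± 0.08 and -0.24 ± 0.08 (edgeR adjusted p 0.143 and 0.153). At an unadjusted edgeR p under 0.05 there were 7 of 20 in this list and 7 of 18 among regulators of ryanodine receptors and SERCA. There were 2 of 18 among genes of calcium transfer to mitochondria, and 3017 of all 16699 tested genes. The remaining lists had 13 of 31 for IP3 production and removal, 8 of 20 for IP3 receptor partners and 3 of 19 for store-operated entry. In the luminal and regulator lists these genes lay in both directions.

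Among 18 tested regulators of ryanodine receptors and SERCA edgeR called 0, the median was 0, and Asph, which gives rise to the ryanodine receptor partner junctin, had 458.8, 450.9 and 422.2 CPM in wild type, against 376.4, 392.0 and 371.9 CPM in knock-in (-0.22 ± 0.07, edgeR adjusted p 0.15). Among 18 tested genes of calcium transfer to mitochondria edgeR called 0, the median was -0.04, and Vdac1, the main channel of the outer membrane, had 499.7, 481.1 and 482.3 CPM in wild type, against 470.2, 456.3 and 496.1 CPM in knock-in (-0.04 ± 0.07, edgeR adjusted p 0.808).

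**Figure D4:**
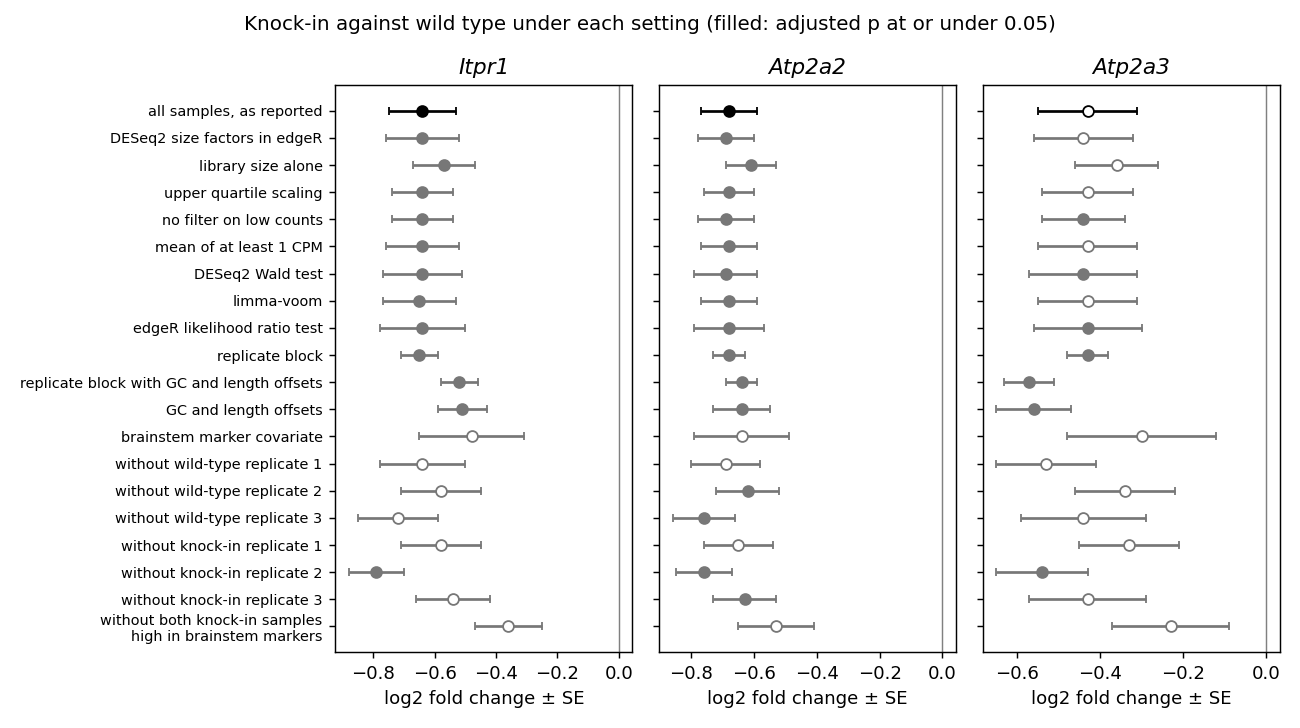
Log2 fold change of Itpr1, Atp2a2 and Atp2a3 with its SE under the reported fit (black) and under each other setting (grey); filled points had an adjusted p at or under 0.05. All points lie below 0, and the open points of Itpr1 and Atp2a2 are those without single samples or with account taken of brainstem markers.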

How the data were processed

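RNA of cerebellum from 3 wild-type and 3 knock-in samples was made into libraries with a stranded mRNA TruSeq kit, per the labels' protocols. The authors deposited whole-number counts for each Ensembl gene, without normalization. Tools in the submitters' processing notes are HTSeq 0.6.1, TopHat2 2.0.14, Bowtie2 2.1.0 and bcl2fastq 2.17.1.14, with build mm10. For the annotation and the strand setting of counting, nothing is given in the sources used here. Symbols, coordinates and exon lengths came from GENCODE M21, which matched 48349 of 48709 identifiers (unmatched rows held 0.0503% of counts).

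All genes were tested in R 4.3.3 with edgeR 4.0.16 (filterByExpr at a minimum count of 10 and total of 15, TMM, quasi-likelihood F test on genotype alone, Benjamini-Hochberg adjustment). A gene was called at an adjusted p at or under 0.05. SE is the absolute log2 fold change over the square root of F. Alternatives used DESeq2 1.42.0, limma 3.58.1 (voom) and, for smooth GC and length offsets, mgcv 1.9.3. The fit was checked on simulated counts. No pair of libraries within a group agreed within sampling noise (chi-square per degree of freedom 13.06 to 28.14), so none was treated as a library deposited in duplicate; this does not show that they are separate animals.

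The 10 genes and all lists were chosen with earlier results of these data known. All 10 were named. From each list the rule took up to 3 called genes with the smallest adjusted p or, with none, the most abundant. The 5 genes most like each called member were also named.

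Alternatives changed the scaling, the filter, the test, offsets, the replicate block, a brainstem marker covariate, the threshold and the samples kept. Promoter sequences came from a RefSeq table (GRCm38.p6) and transcript sequences from GENCODE M21. Single ratios and shares were compared by two-sided exact permutation over samples. Genes named outside that rule are marked in the text. Values of 1 called gene of the lists and 1 shared sequence are not reported here.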

Additional observations from a re-analysis of the deposited data

How the results depend on the processing

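Itpr1 and Atp2a2 had at least 41992 counts in a library and Ryr3, the lowest of the 10, at least 260. Under 19 other settings Itpr1 kept its direction throughout (-0.79 to -0.36) and was called in 12, and Atp2a2 kept it (-0.76 to -0.53) and was called in 15. Atp2a3 kept its direction (-0.57 to -0.23) and was called in 7. Orai2 was lower throughout and never called.

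The count of called genes was 513 with scaling by library size alone, 1303 without a filter, 936 with DESeq2, 948 with the likelihood ratio test, 633 with GC and length offsets, 3 with the brainstem marker covariate, and 42 and 721 at adjusted p thresholds of 0.01 and 0.10. It was 23 without the knock-in samples high in brainstem markers, a setting chosen after seeing the data in which a lone knock-in sample is assumed to vary like the wild type. Without single replicates it was 39 to 858, with 39 without knock-in replicate 1 and 858 without knock-in replicate 2. The number of called members was 0 with the covariate and 0 without the samples high in brainstem markers, 1 at the threshold of 0.01, and 0 to 3 without single replicates (0 without wild-type or knock-in replicate 1, 3 without knock-in replicate 2). The number of called pathway genes, 4 as reported, was 13 without a filter, 12 with DESeq2, 10 with the likelihood ratio test, 9 with offsets, 0 with the covariate, 0 without the samples high in brainstem markers, 1 and 7 at the thresholds of 0.01 and 0.10, and 1 to 14 without single replicates. The cause of these shifts was not tested.

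Same-numbered samples of the groups did not all deviate together (Pearson r across genes 0, 0.17 and 0.32 for numbers 1, 2 and 3). For pairs with different numbers r was -0.29 to 0.1. Whether same-numbered samples were handled together was not tested. With the replicate block 2034 genes were called and 30 of the pathway, and 1407 and 24 with the block and offsets.

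Genes near 0 changed sign. Itpr2 was at 0.04 with offsets, with or without the replicate block, 0.005 with the covariate, 0.14 without the samples high in brainstem markers and -0.19 to 0.01 without single replicates. Itpr3 was at -0.06 with offsets, with or without the replicate block, and -0.06 to 0.13 without single replicates. Ryr1 was at 0.13 with the covariate and 0.15 without the samples high in brainstem markers, where Ryr2 was at 0.10. Ryr3 was at -0.10 with the covariate and -0.05 to 0.19 without single replicates. Stim1 was at -0.01 with the covariate and -0.02 to 0.04 without single replicates, and Vdac1 was at 0.03 with scaling by library size. The 3 family shares kept their direction under both other lengths and without each sample, but not their size. The Ryr2 share difference of -1.98 percentage points was -0.486 without knock-in replicate 3, -1.24 without wild-type replicate 1 and -2.94 without knock-in replicate 2, the Atp2a2 difference of -2.81 was -1.74 without wild-type replicate 1 and -3.81 without knock-in replicate 1, and the Itpr1 difference of -0.785 was -0.464 per longest transcript, -0.465 by counts alone and -0.944 to -0.678 without single replicates.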
